A study of Mus musculus with 6 samples.

Results

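The genes described here encode the working parts of the lysosome, namely the enzymes that digest its cargo, the proteins of its membrane and the proton pump that acidifies it. They were chosen by name, as the rows of the deposited expression table whose gene symbol stands in a list of 51 genes. All 51 symbols were found among the 24346 rows of the table, and all of them were among the 11493 genes tested, whose FPKM averaged 0.5 or more over the 6 livers. FPKM are fragments scaled to the length of the transcript and to the number of fragments mapped in the library, a level, so that levels of different genes can be set side by side. The 51 genes comprised 28 soluble hydrolases and their activators, 7 membrane and lipid transfer proteins, and 16 subunits of the proton pump.

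RNA was measured in whole liver from 3 control mice and 3 lipophagy-induced mice, 1 liver per library. All were male C57BL/6 mice (C57BL/6J in the methods of the study) that had been 8 weeks old at the start of feeding with CDAHFD, a high-fat diet of defined amino acids without choline that causes steatohepatitis. After 6 weeks of the diet they received AAV8, an adeno-associated virus, by vein, returned to normal chow and were examined 2 weeks later. The virus of the lipophagy group encoded LDTS-eLIR, a lipid droplet-targeting sequence from mouse perilipin 1 fused to an engineered LC3-interacting region that recruits autophagosomes, and the virus of the control group encoded LDTS-LIR mut, the same fusion with a mutant region that cannot bind LC3. Both groups therefore carried the droplet-targeting part and mCherry, and no liver without it was analysed here. The thyroxine-binding globulin promoter restricted the fusion protein to hepatocytes, whereas the RNA came from all cells of the liver.

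Lysosomes receive lipid droplets and other cargo when autophagosomes fuse with them, and their hydrolases work best in the acid that the V-ATPase, a rotary proton pump, maintains. The V0 sector of this pump lies in the membrane and carries protons, while the V1 sector faces the cytosol and splits ATP. Many lysosomal genes share an E-box in their promoters, often called the CLEAR element, to which the transcription factors TFEB, TFE3 and MITF bind, so that hydrolases, membrane proteins and pump subunits can be raised together when lysosomes are under demand. In liver, lysosomes are abundant in hepatocytes and very abundant in macrophages.

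The promoters of the members were read first, for the E-box that many lysosomal genes are known to share. A list of lysosomal genes was thus likely to hold it more often than all genes. Holding it does not show a shared regulator. Windows from 250 bases before to 50 bases after the transcript start (RefSeq, GRCm38.p6) were found for 42 of the 51 genes, and a gene with several windows was counted once. Those of Ctsb, Ctsh, Asah1, Npc1, Atp6v0d2, Atp6v1b2, Atp6v1c1, Atp6v1g1 and Atp6v1h were not used here. The core E-box CACGTG, which reads the same on both strands, was present in 16 of the 42 windows (38.1%), against 8.09% of the 27025 genes with such a window. The extended form GTCACGTG, or CACGTGAC on the other strand, which always includes the core, was present in 12 of 42 (28.6%) against 2.55% of all genes. By class, 7 of 25 hydrolases, 3 of 6 membrane proteins and 2 of 11 pump subunits held the extended form. Of the 22 members whose values in each liver are given below, Mcoln1, Lamp1, Cln3 and Ctsd held it, and 30 bases around it are shown with the core E-box in capitals, on the strand of the gene.
Mcoln1, chr8:3500436-3500465, plus strand: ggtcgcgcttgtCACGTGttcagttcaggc
Mcoln1, chr8:3500462-3500491, plus strand: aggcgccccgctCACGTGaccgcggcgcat
Lamp1, chr8:13159121-13159150, plus strand: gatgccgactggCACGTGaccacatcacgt
Cln3, chr7:126583340-126583369, minus strand: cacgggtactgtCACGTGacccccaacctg
Ctsd, chr7:142387908-142387937, minus strand: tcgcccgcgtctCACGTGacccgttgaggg

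The capitals began 71 and 45 bases before the start of Mcoln1, 28 bases before that of Lamp1, 121 before that of Cln3 and 98 before that of Ctsd. Ctsd held a further extended form 245 bases before its start, too near the edge of the window to be shown, and Ctsa also held 2. Lamp1 held 4 core motifs in all, at 61, 45, 28 and 15 bases before its start. A match of letters is a description of the window and was not tested as a binding site.

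**Figure D1:**
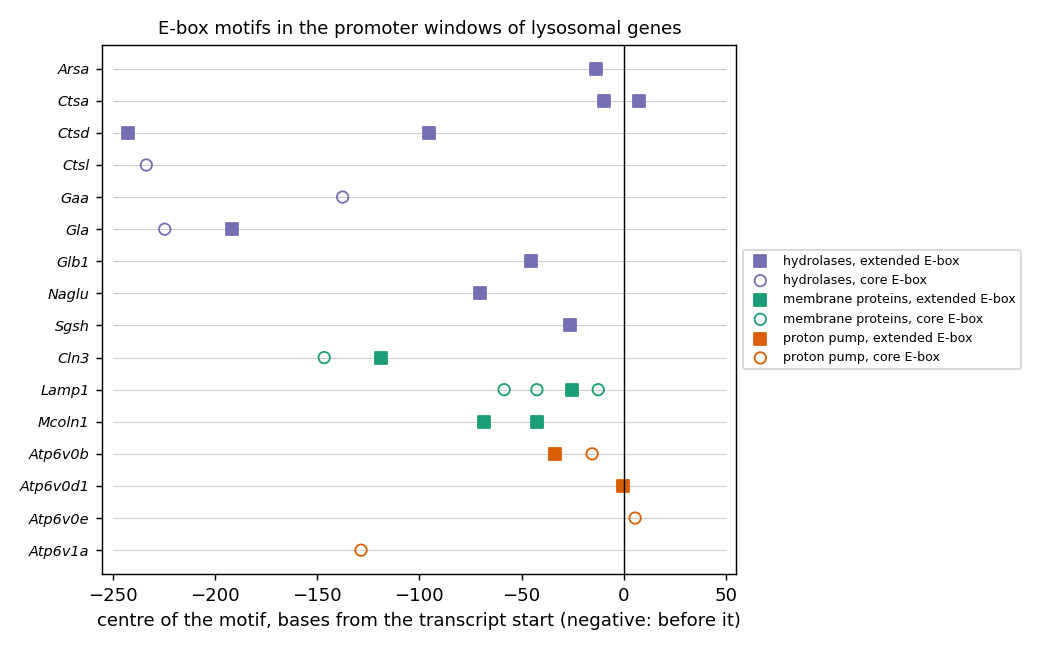
Position of each E-box in the promoter windows of the 16 members that held one, in bases from the transcript start (negative: before it). Filled squares are the extended form and open circles the core alone. Lamp1 has 4 motifs close to its start and Mcoln1 has 2 of the extended form.

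The libraries held an estimated 22.9 to 34.0 M fragments. This was worked out from the steps of low FPKM values and covers counting error only. Expression ranks correlated between livers at Spearman's rho of 0.98 to 0.991 over the tested genes. The summed FPKM of a liver ran from 622696 to 681138 in controls and from 709993 to 782392 in lipophagy livers, so that scaling to the same total lowers every lipophagy value. Albumin (Alb), the main secreted protein of hepatocytes, was at 35470.2 to 39159 FPKM in controls and at 45009 to 64089 FPKM in lipophagy livers. Of 21 hepatocyte markers, 19 were higher in mean in lipophagy livers, with a median log2 change of 0.29 that was 0.10 with quantile normalization and 0.11 with the same total. Markers of macrophages and other cells are given beside the results below.

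The levels of the members spanned a wide range in every liver. Cathepsin D (Ctsd), an aspartic protease, was the most abundant with a mean of 386 FPKM over the 6 livers, followed by the membrane protein Lamp1 with 384 and the cysteine protease cathepsin L (Ctsl) with 366. The ranges of these 3 genes overlapped, so their order is not resolved. At the other end, the heparan and dermatan sulfate enzymes Ids, Idua and Sgsh had means of 1.34, 1.54 and 1.63 FPKM. Among the other proteases, Ctsz, Ctsh, Ctsb and Ctss had means of 256, 189, 164 and 147 FPKM, whereas Ctsa, Tpp1 and Ctsc had 51.1, 26.8 and 19.7 FPKM. The means of the 10 glycosidases did not exceed the 51.3 FPKM of Hexa. Prosaposin (Psap), the precursor of the saposins that present sphingolipids to their hydrolases, had the highest mean outside the proteases among the hydrolases, with 247 FPKM. Lysosomal acid lipase (Lipa), which splits triglycerides and cholesteryl esters inside the lysosome, had 55.9 FPKM.

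**Figure D2:**
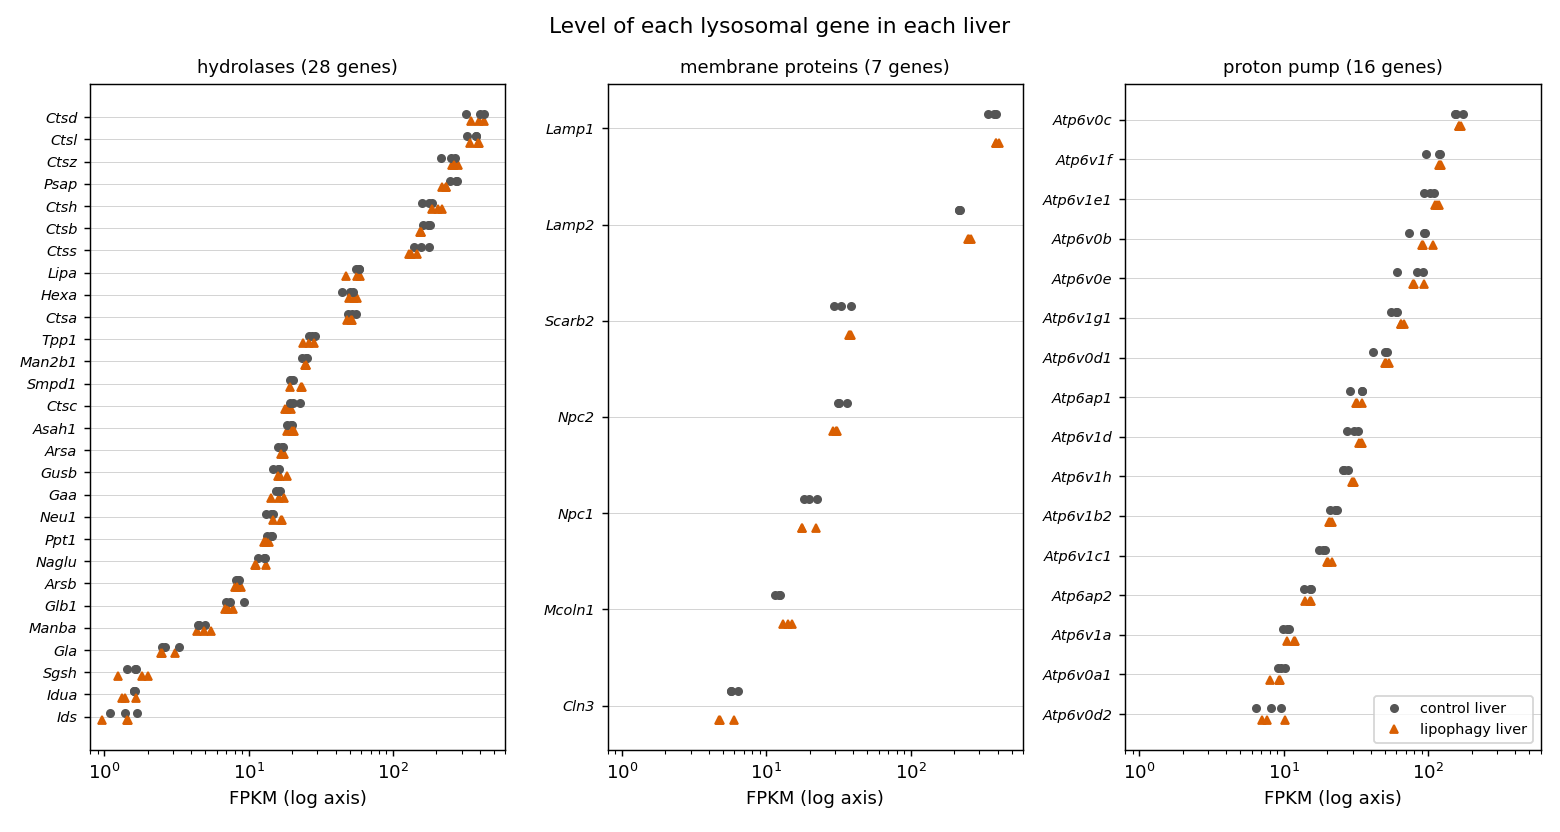
FPKM of each of the 51 genes in each liver on a log axis, by class and in order of mean level. Grey circles are the 3 control livers and orange triangles the 3 lipophagy livers. The points of a gene lie close together compared with the distance from about 1 FPKM (Ids) to over 300 (Ctsd, Ctsl, Lamp1).

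The comparison of lipophagy with control livers asked whether the transcripts of the lysosome differed once lipid droplets were directed to it. No member passed an adjusted p of 0.05 in limma with Benjamini-Hochberg adjustment over all tested genes, where 0.0261% of genes (3 of 11493) did. The adjusted p of the members ran from 0.178 to 0.98. At an unadjusted p below 0.05, 3 members were higher (Lamp2, Mcoln1 and Atp6v1h), while 11.5% of all tested genes were, and 1 was lower (Psap), while 7.97% of all tested genes were. All 3 lipophagy livers lay above all 3 controls for 7 members, against 15.4% of all tested genes, and below them for 3 members, against 10.8%. The log2 change, taken on log2(FPKM + 1), was above 0 for 31 of the 51 members, against 54.5% of all tested genes. Its median was 0.03, against 0.02 over all tested genes. As deposited, these counts were no larger a share of the members than of all genes, apart from the share above 0.

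The data also limit how large a change could have been overlooked. Standard errors of the log2 change ran from 0.07 to 0.16, the changes themselves from -0.22 to 0.23, and the 95% confidence intervals of all 51 members lay between -0.45 and 0.45, all as deposited. These intervals and p-values measure only the spread between these livers. The intervals are not adjusted for the number of genes, so 1 could exclude 0 while its gene missed the adjusted threshold. This was so for Lamp2, Psap, Mcoln1 and Atp6v1h, with limma adjusted p of 0.178, 0.219, 0.231 and 0.248. A change could therefore be larger than the reach of its interval on either side and still go undetected with 3 livers in each group. The directions below, and these bounds, also depend on how the livers are scaled to each other. Scaling every liver to the same FPKM total, an alternative chosen after seeing the data, moved the median change of all tested genes to -0.12 and left 4 of 51 members above 0, namely Lamp2, Mcoln1, Ctsh and Neu1. At an unadjusted p below 0.05, 14 members (27.5%) were then lower, against 21.8% of all tested genes. Quantile normalization left 18 above 0 and gave 8 lower at that level (15.7%), against 7.82% of all tested genes, and scaling to the same median left 31.

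**Figure D3:**
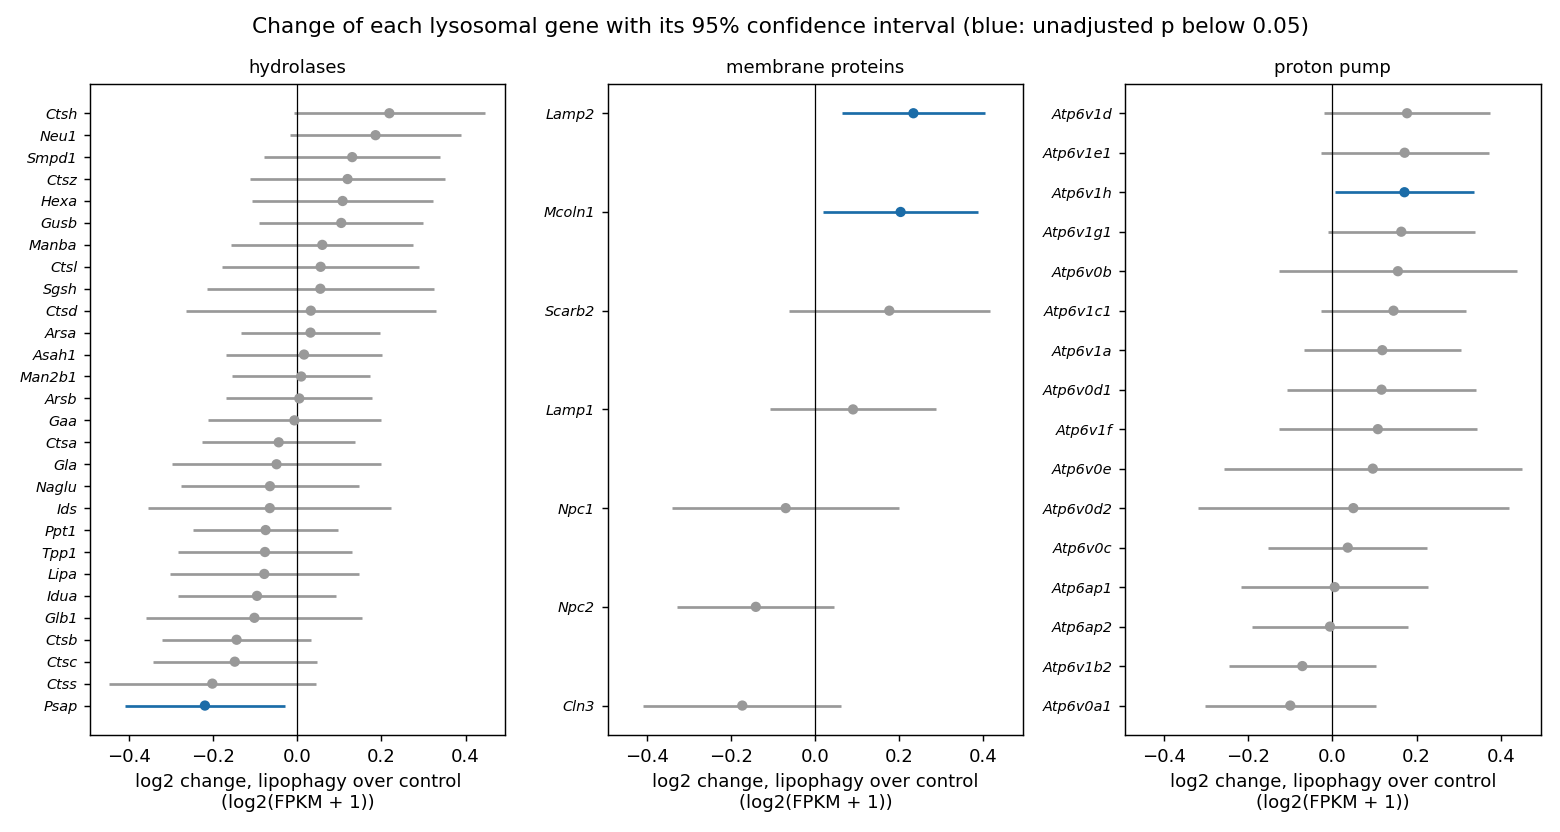
Log2 change of each gene, lipophagy over control on log2(FPKM + 1), with its 95% confidence interval from limma, by class. Blue marks the 4 genes with an unadjusted p below 0.05, Lamp2, Mcoln1 and Atp6v1h to the right of 0 and Psap to the left, none of which passed adjustment. With the livers scaled to the same total Atp6v1h lies just left of 0.

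Hydrolases were evenly divided. Of the 28, 14 were higher and 14 lower in mean in lipophagy livers, with a median log2 change of -0.0010, which became -0.08 with quantile normalization and -0.17 with the same total. No hydrolase had all 3 lipophagy livers above the controls, against 15.4% of all tested genes. Psap and cathepsin B, 2 of the 28, had all 3 below, against 10.8% of all tested genes. The summed level of the 28 was 2000, 2159 and 2279 FPKM in control livers and 2143, 2204 and 2076 FPKM in lipophagy livers, and the groups overlapped.

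Among the proteases, 4 of 9 were higher in mean and 5 lower as deposited, and 1 was higher with quantile normalization as with the same total. Ctsd was at 322, 399.6 and 426 FPKM in control livers and at 392, 429.5 and 349 FPKM in lipophagy livers. The groups overlapped fully, with control liver 1 the lowest of all. Its log2 change was 0.03 (SE 0.13), and it was below 0 with quantile normalization, with the same total, and without control 1 or lipophagy 2. Ctsl was at 376, 325 and 376 FPKM in controls and at 395, 339 and 386 FPKM in lipophagy livers, a log2 change of 0.06 (SE 0.10) that was likewise negative under both of those scalings. Here too no liver group stood apart.

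Cathepsin H (Ctsh), a cysteine aminopeptidase, had the largest positive change of the hydrolases. It was at 159.7, 178 and 186 FPKM in controls and at 205, 219.6 and 185 FPKM in lipophagy livers, so that lipophagy livers 1 and 2 were above every control and lipophagy liver 3 was not. The means were 174 ± 13.3 and 203 ± 17.4 FPKM (SD, n = 3), a log2 change of 0.22 (SE 0.10, limma adjusted p = 0.267). It stayed positive under every scaling tried, at 0.04 both with quantile normalization and with the same total.

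Cathepsin B (Ctsb), a cysteine protease released from injured lysosomes, was at 163, 179 and 175 FPKM in controls and at 156, 154 and 157 FPKM in lipophagy livers. All lipophagy livers were below all controls, and they lay within 3 FPKM of each other. The log2 change was -0.14 (SE 0.08, limma adjusted p = 0.329). Cathepsin S (Ctss), a protease that processes the invariant chain in antigen-presenting cells, was at 139, 157 and 177 FPKM in controls and at 129.7, 147 and 133 FPKM in lipophagy livers, and the groups overlapped. Its log2 change was -0.20 (SE 0.11, limma adjusted p = 0.327). Both stayed negative under every scaling and with any 1 liver left out. The level of Ctsb was 0.359 to 0.504 of that of Ctsd over the 6 livers. The other proteases, Ctsa (carboxypeptidase), Ctsc (dipeptidyl peptidase), Ctsz (carboxypeptidase) and Tpp1 (tripeptidyl peptidase), had log2 changes from -0.15 for Ctsc to 0.12 for Ctsz, and their groups overlapped.

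The glycosidases, which take sugars from glycoproteins, glycolipids and glycogen, gave 5 higher and 5 lower means as deposited, with 4 higher under quantile normalization and 1 with the same total, and none had separate groups. Neuraminidase 1 (Neu1), which removes sialic acids and trims LAMP1 among its substrates, had the largest difference of these 10. It was at 13.2, 14.2 and 14.8 FPKM in controls and at 16.7, 17.1 and 14.6 FPKM in lipophagy livers. Lipophagy liver 3 lay within the controls and the others lay above. The log2 change was 0.19 (SE 0.09, limma adjusted p = 0.286), and it was 0.12 with quantile normalization and 0.01 with the same total. For Gaa, Gla, Glb1, Gusb, Hexa, Idua, Man2b1, Manba and Naglu the log2 changes lay between -0.10 (Glb1) and 0.11 (Hexa). The 4 sulfatases Arsa, Arsb, Ids and Sgsh had changes from -0.07 to 0.05, with groups that overlapped in each.

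The lipid-handling members were led by Psap, the hydrolase class's largest negative change. It was at 248, 273 and 276 FPKM in controls and at 218, 234 and 232 FPKM in lipophagy livers. Every lipophagy liver was below every control. The means were 266 ± 15.3 and 228 ± 8.44 FPKM (SD, n = 3), 14.2% lower in mean, with a log2 change of -0.22 (SE 0.08, 95% interval -0.41 to -0.03, limma adjusted p = 0.219). The change was -0.40 with quantile normalization and with the same total, and it stayed between -0.27 and -0.19 with any 1 liver left out.

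Lipa, the only acid lipase of the list and the enzyme the study followed in cells, showed no such separation. It was at 55.8, 58.0 and 58.2 FPKM in controls and at 59.6, 56.4 and 47.4 FPKM in lipophagy livers, so that lipophagy livers held both the highest and the lowest value. The means were 57.3 ± 1.33 and 54.5 ± 6.30 FPKM (SD, n = 3), a log2 change of -0.08 (95% interval -0.30 to 0.15, limma adjusted p = 0.674). Without lipophagy liver 3 it was 0.02. The interval leaves room for changes of either sign and does not show equal levels. The acid ceramidase Asah1, the acid sphingomyelinase Smpd1 and the palmitoyl thioesterase Ppt1 had log2 changes of 0.02, 0.13 and -0.08, with overlapping groups.

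Macrophage markers were lower in mean in lipophagy livers, and so were Psap, Ctsb and Ctss, which macrophages also express. Other members went the other way as deposited, such as Ctsz, Lamp1, Ctsl and Ctsd, with log2 changes of 0.12, 0.09, 0.06 and 0.03. All of these were below 0 with quantile normalization and with the same total. Among the 28 hydrolases, 14 were higher and 14 lower in mean as deposited. Of 23 tested macrophage markers, 19 were lower in mean in lipophagy livers, 9 of them at an unadjusted p below 0.05, against 7.97% of all tested genes. At the same level 1 marker was higher, Vsig4 of Kupffer cells, with a log2 change of 0.40 and all lipophagy livers above the controls. The median log2 change of the markers was -0.24, which stayed negative under every scaling and was -0.16 without control liver 3. The summed level of the markers ran from 1136 to 1443 FPKM in controls and from 1095 to 1275 FPKM in lipophagy livers, and none was listed at 0 in all livers. Chosen after their values were seen, the pan-macrophage gene Cd68 was at 32.4, 35.1 and 43.0 FPKM in controls and at 24.4, 30.1 and 29.3 FPKM in lipophagy livers, whereas the Kupffer cell gene Clec4f was at 30, 29.0 and 21.0 FPKM in controls and at 33.3, 27.3 and 28.8 FPKM in lipophagy livers. Cd68 had the largest negative log2 change of the markers, of -0.38, and is also counted among the other lysosomal membrane proteins below. Other lists went both ways. Of 11 stellate cell markers 9 were lower in mean, 6 of them at an unadjusted p below 0.05, against 7.97% of all tested genes. For 6 all lipophagy livers lay below the controls, against 10.8% of all tested genes. The median log2 change of the 11 was -0.32. All 6 bile duct markers tested and both neutrophil markers tested were lower in mean, with medians of -0.50 (-0.34 without lipophagy liver 3, -0.76 without lipophagy liver 2) and -0.48 (-0.31 without control liver 2). Of 10 endothelial markers 8 were higher, with a median of 0.09 that was -0.01 without lipophagy liver 1 and 0.20 without control liver 1, and of 5 lymphocyte markers 3 were higher, with a median of 0.0018 that ran from -0.11 without control liver 3 to 0.21 without control liver 1. The part of any of these cells in the levels of the members was not tested. In bulk tissue, fewer cells of a type and less RNA per cell cannot be told apart.

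The largest positive change of the 51 genes, that of Lamp2, was among the membrane proteins. Of these 7, 4 were higher and 3 lower in mean, with a median log2 change of 0.09 that became -0.12 with quantile normalization and -0.09 with the same total, and 0.04 without control liver 1. As deposited, Lamp2 and Mcoln1 had lipophagy livers all above the controls, against 15.4% of all tested genes. Npc2 had them all below, against 10.8% of all tested genes. The summed level of the 7 was 659, 719 and 706 FPKM in controls and 758, 765 and 751 FPKM in lipophagy livers, which did not overlap as deposited, and most of it was Lamp1 and Lamp2. As a share of the FPKM total of each liver it was 0.104% to 0.109% in controls and 0.0969% to 0.106% in lipophagy livers, which overlapped.

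LAMP1 and LAMP2 are the heavily glycosylated proteins that coat the inner face of the lysosomal membrane, and LAMP2 also takes part in chaperone-mediated autophagy and in the fusion of autophagosomes with lysosomes. Lamp2 was at 216, 219 and 215 FPKM in controls and at 263, 252 and 251 FPKM in lipophagy livers. As deposited the groups were well apart, and the lowest lipophagy liver exceeded the highest control. As a share of the FPKM total of each liver, the groups overlapped. The means were 217 ± 2.23 and 255 ± 6.42 FPKM (SD, n = 3), 17.7% higher in mean, with a log2 change of 0.23 (SE 0.07, 95% interval 0.06 to 0.40, limma adjusted p = 0.178). This was the smallest adjusted p of the 51 genes. The change stayed between 0.21 and 0.25 with any 1 liver left out, and it was 0.05 both with quantile normalization and with the same total.

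Lamp1 was at 345, 391 and 381 FPKM in controls and at 391, 409 and 389 FPKM in lipophagy livers. The groups overlapped, with control liver 1 alone clearly below the rest. The log2 change was 0.09 (SE 0.09, 95% interval -0.11 to 0.29, limma adjusted p = 0.569), and it was -0.12 with quantile normalization and -0.09 with the same total. It was 0.04 without control liver 1 and 0.13 without control liver 2. The level of Lamp1 was 1.49 to 1.62 times that of Lamp2 in lipophagy livers and 1.6 to 1.78 times in controls. This ratio does not depend on the scaling to a total, and the groups overlapped in it.

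Mucolipin 1 (Mcoln1), the TRPML1 channel that releases calcium from the lysosome, was measured at 11.6, 12.4 and 12.2 FPKM in controls and at 13.1, 14.1 and 15.0 FPKM in lipophagy livers. As deposited, every lipophagy liver was above every control, although the gap between the groups was smaller than the spread among lipophagy livers. As a share of the FPKM total of each liver, the groups overlapped. The means were 12.1 ± 0.425 and 14.1 ± 0.969 FPKM (SD, n = 3), with a log2 change of 0.20 (SE 0.08, 95% interval 0.02 to 0.39, limma adjusted p = 0.231). It stayed positive under every scaling, at 0.13 with quantile normalization and 0.03 with the same total.

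Npc2, the soluble protein that hands cholesterol to the membrane protein NPC1, had 31.7, 31.9 and 36.1 FPKM in controls and 30.8, 29.0 and 30.3 FPKM in lipophagy livers. The groups were apart by less than 1 FPKM. The log2 change was -0.14 (SE 0.08, limma adjusted p = 0.365), and it was negative under every scaling. Npc1 itself had a log2 change of -0.07 with overlapping groups. Cln3, a membrane protein lost in juvenile Batten disease, was at 5.72, 6.43 and 5.67 FPKM in controls and at 4.75, 4.78 and 6.00 FPKM in lipophagy livers. Lipophagy liver 3 lay within the controls, and the log2 change was -0.17 (SE 0.10, limma adjusted p = 0.374). Scarb2, also known as LIMP2, the receptor that carries glucocerebrosidase to the lysosome, had a log2 change of 0.18 (-0.00096 with the same total) with overlapping groups.

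**Figure D4:**
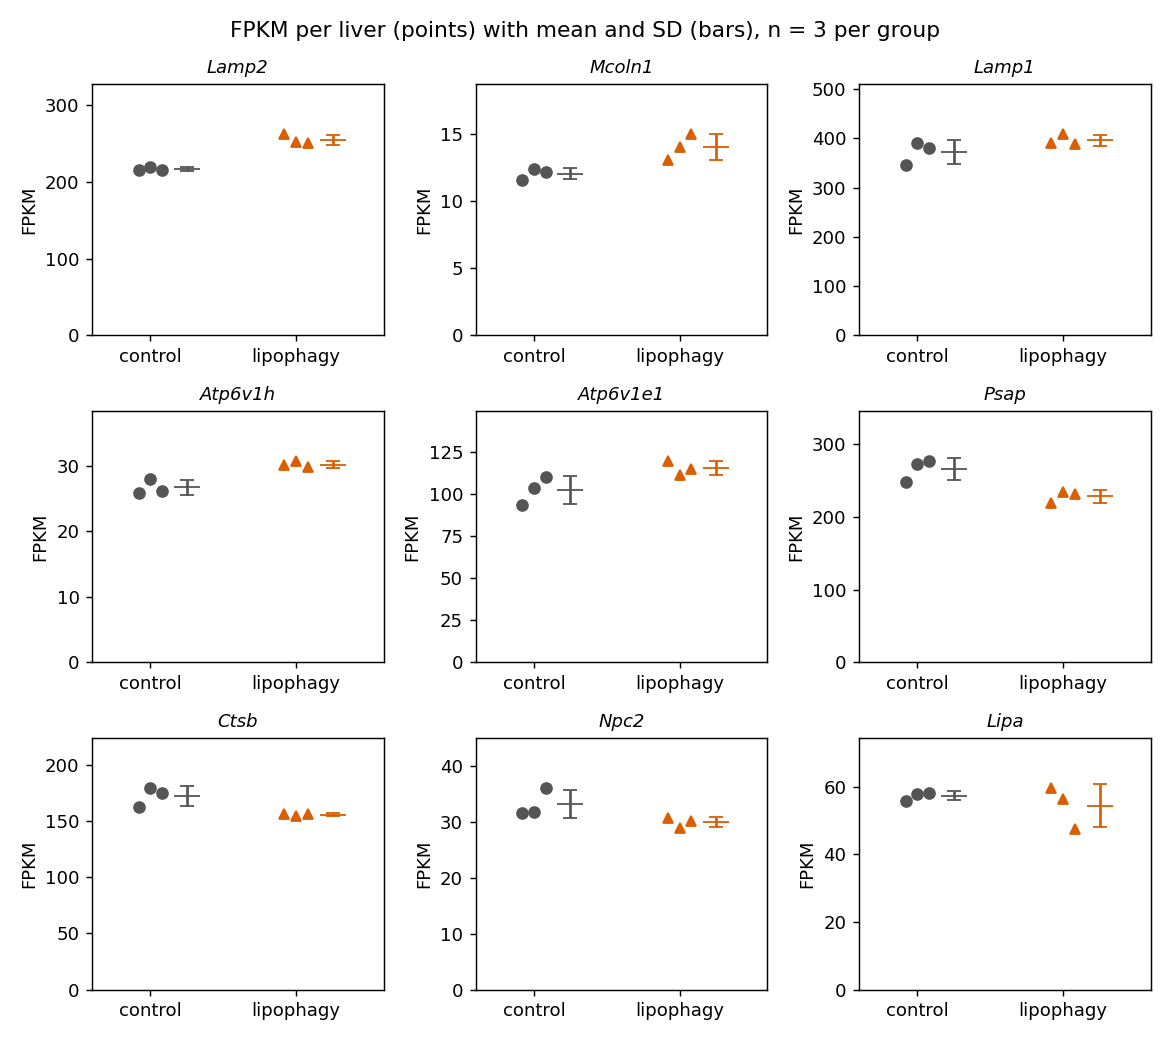
FPKM of 9 members in each liver (points) with the mean and SD of each group (n = 3), each axis starting at 0. Lamp2, Mcoln1, Atp6v1h and Atp6v1e1 have all lipophagy livers above the controls as deposited (with the same total the mean change of Atp6v1h and Atp6v1e1 is just below 0), Psap, Ctsb and Npc2 have them all below, and Lamp1 and Lipa overlap.

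The proton pump was the class with the largest share of members above 0 as deposited. Of its 16 subunits, 13 were higher and 3 lower in mean as deposited, with a median log2 change of 0.11, but 7 were higher with quantile normalization and 0 with the same total, with medians of -0.01 and -0.07. Without control liver 1 the median was 0.03. That liver was low for the pump as a whole, since its summed level was 737 FPKM, against 850 and 882 FPKM in the other controls and 881, 903 and 863 FPKM in lipophagy livers. The groups overlapped in this sum.

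The V1 sector, which splits ATP, held the 5 subunits with separate groups as deposited. Of its 8 subunits, 7 were higher in mean, 5 had all lipophagy livers above the controls, where 54.5% and 15.4% of all tested genes were so, and the median log2 change was 0.15. The subunits of a sector were not tested as a set. With quantile normalization 6 were above 0 (median 0.04) and with the same total 0 (median -0.02). Of the 6 V0 subunits 5 were higher in mean, with a median of 0.07 (0.01 without control liver 1) and no separate groups, though 1 was higher with quantile normalization and 0 with the same total, and the accessory proteins Atp6ap1 and Atp6ap2 were at 0.01 and -0.01. Whether the sectors differ was not tested. Hepatocyte markers were higher in mean in the same livers, as given above, and their part in the level of the pump, of Lamp2 and of Mcoln1 was not tested.

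Atp6v1h, a regulatory subunit of the stalk, was at 25.9, 28.0 and 26.2 FPKM in controls and at 30.04, 30.7 and 29.7 FPKM in lipophagy livers. As deposited, lipophagy livers were close together and above all controls. The means were 26.7 ± 1.13 and 30.2 ± 0.484 FPKM (SD, n = 3), with a log2 change of 0.17 (SE 0.07, 95% interval 0.01 to 0.34, limma adjusted p = 0.248), and with the same total it was -0.0055. It was the one pump subunit with an unadjusted p below 0.05.

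The other V1 subunits with separate groups were Atp6v1c1, Atp6v1d, Atp6v1e1 and Atp6v1g1. Atp6v1c1, which takes part in the assembly of V1 onto V0, was at 17.6, 19.4 and 18.6 FPKM in controls and at 20.1, 21.4 and 20.3 FPKM in lipophagy livers. Atp6v1d, part of the rotor shaft, was at 27.3, 30.6 and 32.5 FPKM in controls and at 34.9, 34.3 and 33.1 FPKM in lipophagy livers. In both genes the nearest livers of the 2 groups were less than 1 FPKM apart. The stator subunit Atp6v1e1 was at 93.6, 104 and 110.1 FPKM in controls and at 119.5, 111 and 115 FPKM in lipophagy livers. Its partner in the stator Atp6v1g1 was at 55.4, 59.7 and 60.9 FPKM in controls and at 67.9, 64.5 and 64.8 FPKM in lipophagy livers. Control liver 1 was the lowest for each of these 4 genes. Their log2 changes were 0.15, 0.18, 0.17 and 0.16 in this order, with limma adjusted p of 0.318, 0.294, 0.309 and 0.279. They stayed positive with any 1 liver left out and with quantile normalization, while with the same total they were -0.03, -0.0001, -0.0097 and -0.02.

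Atp6v1f, a rotor subunit and the most abundant of V1, was at 96.6, 121 and 119 FPKM in controls and at 120.3, 123 and 118 FPKM in lipophagy livers, so that control liver 1 alone stood apart. Its log2 change of 0.11 (SE 0.10) was -0.05 with quantile normalization, -0.07 with the same total and 0.0040 without control liver 1. Atp6v1a, the catalytic subunit, had a log2 change of 0.12 (SE 0.08) with overlapping groups. Atp6v1b2, the nucleotide-binding subunit that pairs with it, was at 20.8, 22.5 and 23.3 FPKM in controls and at 20.9, 21.6 and 20.6 FPKM in lipophagy livers. The groups overlapped, and it was the V1 subunit with a negative change, of -0.07 (SE 0.08).

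In the V0 sector, Atp6v0c, which forms most of the proton-carrying ring, was the most abundant subunit of the pump. It was at 153, 157 and 174 FPKM in controls and at 168, 165 and 163 FPKM in lipophagy livers, with the lipophagy livers inside the range of the controls. The log2 change of 0.04 (SE 0.08) was -0.13 with quantile normalization, -0.15 with the same total and -0.0004 without control liver 1. Atp6v0a1, the channel subunit that sorts the pump, was at 9.60, 10.2 and 9.19 FPKM in controls and at 9.47, 9.35 and 8.03 FPKM in lipophagy livers. Its log2 change was -0.10 (SE 0.09), and its groups overlapped. Atp6v0b, Atp6v0d1, Atp6v0d2 and Atp6v0e had log2 changes of 0.16, 0.12, 0.05 and 0.10, and none of them had separate groups.

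For subunits encoded by several genes, the levels of the forms were compared. Atp6v0d1, the widely expressed d subunit, was 4.97 to 8.03 times the level of Atp6v0d2, the form known from osteoclasts, macrophages and kidney, in every liver, and the ratios of the 2 groups overlapped. Tcirg1, the a3 form of the a subunit known from osteoclasts and immune cells, was above Atp6v0a1 in every liver, with Atp6v0a1 at 0.341 to 0.470 of its level. Tcirg1 was at 22.3, 28.8 and 27.0 FPKM in controls and at 20.1, 24.1 and 22.2 FPKM in lipophagy livers, a log2 change of -0.22 (limma adjusted p = 0.315). The kidney and testis forms Atp6v0a4, Atp6v1c2, Atp6v1e2 and Atp6v1g3, and the accessory gene Atp6ap1l, were listed at 0 in all livers, and Atp6v1b1 did not exceed 0.024 FPKM.

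**Figure D5:**
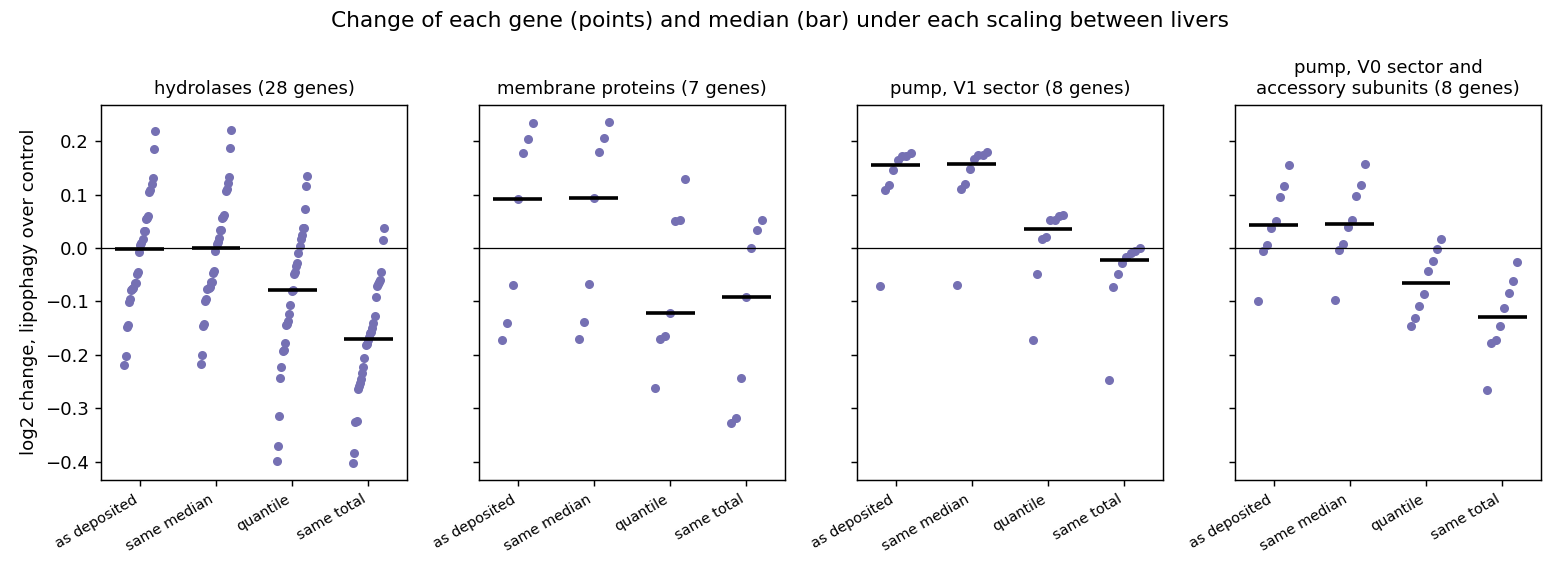
Log2 change of each member (points) and the median of its class (bar) as deposited and after scaling the livers to the same median, to the same distribution (quantile) or to the same total. The V1 sector has a median of 0.15 as deposited, 0.04 with quantile normalization and -0.02 with the same total, and the hydrolases of -0.0010, -0.08 and -0.17.

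The 16 members with a core E-box had a median log2 change of 0.04, and the 26 without it 0.01. With the extended form the medians were 0.03 over 12 members and 0.02 over 30. Of the 12, 7 were above 0 as deposited. These values, as deposited, are a description, and whether holders and the rest differ was not tested.

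The rest of the lysosomal pathway was described from 6 lists of 142 other genes, of which 126 were tested. None of the 126 passed an adjusted p of 0.05 in limma, and 11 were higher and 11 lower at an unadjusted p below 0.05, beside 11.5% and 7.97% of all tested genes. Means were higher for 67 and lower for 59 as deposited, with a median log2 change of 0.01, while 51 were higher with quantile normalization and 23 with the same total. The directions of the lists below are those of the deposited values. The smallest adjusted p was that of Anxa2.

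Of 31 other hydrolases tested, 13 were higher and 18 lower in mean. The largest positive log2 change was 0.46 (SE 0.28) for the ribonuclease Rnaset2b, whose reads can be split with its near-identical copy Rnaset2a. It ran from 0.11 to 0.69 with 1 liver left out. The largest negative one was -0.21 (SE 0.08) for the amidase Naaa. Named after their values were seen, the fucosidase Fuca1 and the phospholipase-like Plbd2 were higher and Naaa was lower at an unadjusted p below 0.05, with limma adjusted p of 0.241, 0.232 and 0.233. Of 28 other membrane proteins, 12 were higher and 16 lower. The tetraspanin Cd63 had the largest negative change at -0.41 (SE 0.22) and Tmem9 the largest positive one at 0.24 (SE 0.10). With 1 liver left out they ran from -0.63 to -0.25 and from 0.13 to 0.31. The 4 that were lower at an unadjusted p below 0.05, named after their values were seen, were Cd68, Laptm5, Litaf and Tpcn2, of which Cd68 and Laptm5 are known from macrophages and other blood cells. Lamp3 was listed at 0 in all livers, and the other 2 mucolipins did not exceed 0.376 FPKM (Mcoln2) and 0.048 FPKM (Mcoln3), so Mcoln1 was the only one of the family with a mean above the filter.

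Of 11 other pump and assembly genes tested, 7 were higher and 4 lower in mean. The largest changes were 0.27 (SE 0.09) for Ccdc115, an assembly factor of the pump, and -0.43 (SE 0.17) for the low-level subunit Atp6v0e2. Of 19 genes of delivery to the lysosome, 13 were higher and 6 lower. Cln8, which takes hydrolases out of the endoplasmic reticulum, had the largest positive change of 0.42 (SE 0.12, limma adjusted p = 0.160). Cln6 of the same complex had the largest negative one of -0.28 (SE 0.18), which ran from -0.46 to -0.09 with 1 liver left out. Cln8 was at 4.56, 6.29 and 5.53 FPKM in controls and at 6.87, 7.46 and 8.50 FPKM in lipophagy livers, all of them above the controls.

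The factors that bind the E-box were examined at the level of their own transcripts, which says nothing of their transport into the nucleus. Tfeb was at 3.35, 3.46 and 4.13 FPKM in controls and at 3.01, 4.02 and 3.82 FPKM in lipophagy livers, and the groups overlapped with a log2 change of -0.01 (SE 0.11) that was 0.02 with quantile normalization and -0.15 with the same total. Tfe3 was at 8.27, 9.26 and 9.70 FPKM in controls and at 8.66, 7.32 and 6.76 FPKM in lipophagy livers, a log2 change of -0.24 (SE 0.10, limma adjusted p = 0.264) with overlapping groups. That was the largest negative change of the 22 regulators tested, of which 13 were higher and 9 lower in mean. Mitf was at 0.752, 0.801 and 0.658 FPKM in controls and at 0.631, 0.537 and 0.641 FPKM in lipophagy livers, all of which lay below the controls, and its log2 change was -0.12 (SE 0.08, limma adjusted p = 0.421). The largest positive change was 0.23 (SE 0.10) for Lamtor4, a subunit of the Ragulator complex that anchors mTORC1 at the lysosome.

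Genes of lysosomal exocytosis, the fusion of lysosomes with the plasma membrane, were the last list. Syt7, the calcium sensor of that fusion, was at 0.227, 0.283 and 0.296 FPKM in controls and at 0.062, 0.174 and 0.097 FPKM in lipophagy livers. The groups did not overlap, but the mean was below the filter and the gene was not tested. Vamp7, a SNARE protein of the same step, was listed at 0 in all 6 livers, so its level could not be described. Of the 15 genes tested, 9 were higher and 6 lower in mean. At an unadjusted p below 0.05, 1 was higher and 3 were lower, beside 11.5% and 7.97% of all tested genes. The 3 had all lipophagy livers below the controls, against 10.8% of all tested genes. Named after their values were seen, 2 of these were S100a11, a calcium-binding partner of annexins, and Arl8a, a small GTPase that moves lysosomes along microtubules, with log2 changes of -0.68 and -0.30 (limma adjusted p of 0.124 and 0.140). The largest positive change was 0.44 (SE 0.16) for the small GTPase Rab3a. The largest negative one was -0.76 (SE 0.11, limma adjusted p = 0.0832) for Anxa2, an annexin of membrane repair that many non-parenchymal cells also express. Anxa2 was at 55.6, 66.0 and 71.1 FPKM in controls and at 39.3, 39.6 and 33.6 FPKM in lipophagy livers, which were all well below the controls. Markers of stellate cells and macrophages were lower in mean in the same livers, as given above, and their part in the level of Anxa2 was not tested.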

How the data were processed

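Total RNA of mouse liver was sequenced as poly(A) libraries, stranded by the methods of the study, in 100 bp paired-end mode. The authors deposited FPKM values by gene symbol and liver, in which 2 symbols, neither of them a gene named here, stood on 2 rows each. Their processing notes name TopHat2 2.0.13, Bowtie2 2.2.3, SAMtools 0.1.19, Cufflinks 2.2.1 and the build mm10, without roles or settings. The annotation, and whether this processing used the strand, are not given in the sources used here. Since these values are not read counts, no test for counts was applied. Depth was estimated from the steps of low values, since a low FPKM is a whole multiple of the value of 1 fragment, which 427 of 452 low genes examined followed (94.5%). It used GENCODE transcript lengths less 150 bases. For controls 1 to 3 it gave 26.7, 23.7 and 34.0 M fragments, and for lipophagy livers 1 to 3 it gave 23.7, 22.9 and 24.8 M.

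Groups and replicate numbers came from the sample labels. A pseudocount of 1 was added, log2 was taken, and genes averaging 0.5 FPKM or more were compared by limma (version 3.58.1, R 4.3.3, moderated variance with an intensity trend, two-sided, no covariate), with Benjamini-Hochberg adjustment over 11493 genes and a threshold of 0.05. A change on this scale understates that of genes with low FPKM. A single value of 3 livers against 3 cannot reach an exact permutation p below 0.1, so none is printed. The procedure was tested on simulated data. Python 3.11.15 served for tables (pandas 2.3.3), motif searches and arithmetic (numpy 2.4.6) and plots (matplotlib 3.10.9). E-boxes were searched on both strands of RefSeq promoter windows (GRCm38.p6).

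The members, the lists of other genes and the rule for named genes were chosen with earlier results of these data known. Values in each liver were given for Lamp1, Mcoln1 and Lipa, for members with an unadjusted p below 0.05 or with separate groups, and in each class for the 2 largest changes each way and the 2 highest means, 22 members in all. For the other lists the largest change each way was named, with Tfeb, Tfe3, Mitf and Syt7, and further genes were picked after seeing their values, as the text states, or are another form of a subunit. Marker lists of stellate, endothelial, bile duct and blood cells were also computed. Their median log2 changes were -0.32 (stellate, 11 genes tested), 0.09 (endothelial, 10), -0.50 (bile duct, 6), 0.0018 (lymphocytes, 5) and -0.48 (neutrophils, 2).

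Alternatives were a pseudocount of 0.1, a filter at 1 FPKM or none, livers scaled to 1 median or quantile normalized, no intensity trend, a block for the replicate number, the omission of each liver and, chosen after seeing the data, scaling to the same FPKM total.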

Additional observations from a re-analysis of the deposited data

How the results depend on the processing

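No member passed an adjusted p of 0.05 in limma under any alternative run. The counts at an unadjusted p below 0.05 moved with the scaling: 3 members were higher and 1 lower as deposited, 0 and 8 with quantile normalization, and 0 and 14 with scaling to the same total, which was chosen after seeing the data. Of all tested genes, 6.48% were higher and 7.82% lower with quantile normalization, and 2.05% and 21.8% with the same total. With 1 liver left out, 1 to 4 were higher (1 without control 1 or lipophagy 2) and 0 to 3 lower (3 without control 1, 2 without lipophagy 3 and 0 without any of the others). The 22 other pathway genes at this level became 34 with the same total and 9 to 21 with 1 liver left out (9 without control 3, 12 without lipophagy 1 and 14 without control 2). Median log2 changes with quantile normalization and with the same total were -0.079 and -0.17 for hydrolases, -0.12 and -0.092 for membrane proteins and -0.013 and -0.068 for the pump, whose median ran from 0.028 (without control 1) to 0.16 with 1 liver left out.

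For single named members the direction turned in 20 alternative values and was kept in 288. With quantile normalization and with the same total, respectively, the log2 changes were -0.18 and -0.15 for Ctsd, -0.14 and -0.13 for Ctsl, -0.12 and -0.092 for Lamp1, -0.13 and -0.15 for Atp6v0c, and -0.049 and -0.073 for Atp6v1f. With the same total alone they were -0.029 for Atp6v1c1, -0.0001 for Atp6v1d, -0.0097 for Atp6v1e1, -0.016 for Atp6v1g1 and -0.0055 for Atp6v1h. Leaving out 1 liver gave -0.086 to 0.11 for Ctsd, -0.014 to 0.12 for Ctsl, -0.15 to 0.016 for Lipa and -0.0004 to 0.093 for Atp6v0c. The cause was not tested.

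Replicate numbers are shared between the groups, but same-numbered livers deviated together only in part (r of 0.25, 0.23 and -0.06), so they were taken to share only a number. With the replicate block 1 member was higher and 0 were lower at an unadjusted p below 0.05. Ids, Idua and Sgsh had the lowest mean levels of the members, at about 1 FPKM, and how far depth limits them was not tested.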
